A study of Homo sapiens with 6 samples.

Results

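The clustered protocadherin genes on human chromosome band 5q31 were examined for histone H2A.Z and its ubiquitylated form in HEK293T cells. Peaks of ubiquitylated and of total H2A.Z were merged where they overlapped or touched, and the merged regions with a midpoint in chr5:140100000-140950000 (hg19) were taken. This gave 120 of 198179 merged regions. The window was divided at 140.41 Mb and 140.68 Mb into the alpha cluster with 35 regions, the beta cluster with 31 and the gamma cluster with 54. The members were taken by position, so list membership, fold change, width and spacing are not fixed by the rule. The window itself was chosen with earlier results of these data known, so its shares are not those of a window picked blind. The protocadherin genes listed for the window number 53, with 15 in alpha, 16 in beta and 22 in gamma. Other genes inside the window were not counted. The hg19 positions of genes were not used here, so regions are given by coordinates. No region is assigned to a gene, exon or promoter, and the gene label was not checked against an annotation.

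Clustered protocadherins are cell adhesion proteins of the cadherin family, best known from neurons, where each cell expresses its own small set of them and the set serves as a surface identity. In the alpha and gamma clusters a tandem row of large variable exons, each with its own promoter, is spliced to shared constant exons, while each beta gene is a single exon. Most of these promoters carry a conserved sequence element with the core CGCT, and CTCF, a DNA-binding protein that shapes chromatin loops, binds there and helps choose the promoter that is used. The histone variant H2A.Z replaces H2A at many promoters and enhancers, and its monoubiquitylated form is known from silenced chromatin such as the inactive X chromosome.

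All 6 samples came from HEK293T, an established line derived from human embryonic kidney, transfected with 2 plasmids at a ratio of 3 to 1: H2A.Z-1 with Flag and the biotin ligase BirA at its C-terminus, and ubiquitin with an AviTag, the peptide that BirA biotinylates, at its N-terminus. Cells were collected 48 hours later, and chromatin was released from nuclei by 30 minutes of digestion with micrococcal nuclease. Streptavidin pull-downs gave ubiquitylated H2A.Z (2 samples), Flag pull-downs gave total tagged H2A.Z (2 samples), and histone H3 was precipitated as a control (2 samples) that enters no comparison below. The histone was introduced on a plasmid and the 2 forms were recovered with different reagents, so a difference between reagents cannot be told apart from one in ubiquitylation. The authors deposited 1 peak list for each H2A.Z form and lists of differential regions between them, but no value per sample was used. Sequencing depth is therefore unknown. Replicate spread is carried by the authors' IDR, the irreproducible discovery rate of a peak, which reads like a q-value, and by their false discovery rate (FDR). The labels do not say that replicates were separate cultures, so that spread may be technical. Intervals on shares are 95% Wilson intervals and cover counting error only.

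The promoters show what the genes of each cluster have in common. RefSeq promoter sequences (GRCh38.p14, 250 bases before to 50 after the annotated start) were found for 47 of the 53 genes. The letters CGCT occurred on the gene's strand 20 to 120 bases before the start in 43 of these 47 promoters (91.5%), against 28.0% of 27305 genes. Only the 40 bases around that match are printed, with CGCT in capitals, because the flanking letters differ between the clusters. Their coordinates belong to GRCh38.p14 and cannot be set beside the hg19 coordinates of the H2A.Z regions. The first 4 matched alpha genes were alike over the bases before the core:
PCDHA1 (chr5:140786080-140786119, plus strand): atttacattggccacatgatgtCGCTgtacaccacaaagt
PCDHA2 (chr5:140794775-140794814, plus strand): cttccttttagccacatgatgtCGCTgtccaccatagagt
PCDHA4 (chr5:140806973-140807012, plus strand): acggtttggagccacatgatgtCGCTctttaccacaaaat
PCDHA5 (chr5:140821536-140821575, plus strand): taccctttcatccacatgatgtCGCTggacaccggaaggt

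In the beta genes the core followed a run ending in ggtgg, as in the first 4 with a match after PCDHB1:
PCDHB2 (chr5:141094538-141094577, plus strand): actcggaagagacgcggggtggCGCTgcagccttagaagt
PCDHB3 (chr5:141100387-141100426, plus strand): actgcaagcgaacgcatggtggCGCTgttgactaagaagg
PCDHB4 (chr5:141121717-141121756, plus strand): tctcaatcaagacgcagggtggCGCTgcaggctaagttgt
PCDHB7 (chr5:141172560-141172599, plus strand): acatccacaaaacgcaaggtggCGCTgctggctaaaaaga

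In the gamma A genes it was followed by gtt in these 4:
PCDHGA1 (chr5:141330397-141330436, plus strand): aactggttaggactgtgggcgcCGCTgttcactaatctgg
PCDHGA2 (chr5:141338697-141338736, plus strand): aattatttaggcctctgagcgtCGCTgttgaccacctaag
PCDHGA3 (chr5:141343761-141343800, plus strand): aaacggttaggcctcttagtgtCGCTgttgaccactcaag
PCDHGA4 (chr5:141354954-141354993, plus strand): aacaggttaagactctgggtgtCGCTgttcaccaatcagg

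PCDHB1, which lies apart at the start of the beta cluster, and PCDHAC2, the last alpha gene, are shown for contrast, since none of these runs stood directly beside their core:
PCDHB1 (chr5:141051268-141051307, plus strand): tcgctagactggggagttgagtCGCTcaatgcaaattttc
PCDHAC2 (chr5:140966413-140966452, plus strand): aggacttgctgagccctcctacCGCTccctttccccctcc

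Counted on both strands and over the whole promoter, TGTCGCT was present in 10 of 11 alpha promoters, excluding the C-type genes, in 3 of 11 gamma A and 1 of 14 beta promoters, and in 1.76% of all genes. GTGGCGCT was present in 13 of 14 beta promoters, in none of the other members and in 1.18% of all genes. GCCGCTGT was present in 5 of 11 gamma A, 4 of 7 gamma B and 2 of 2 gamma C promoters, and in 1.60% of all genes. These 3 strings were chosen after the members' promoters had been seen and share the core CGCT with one another. The core lay at a median of 51.5 bases before the start in alpha, 63 in beta and 46 in gamma A. CGCT anywhere on either strand was present in 46 of 47 promoters and 69.4% of all genes, so without its position the match separates these promoters little from others. The CTCF core motif, searched on both strands with its degenerate positions left free, was found in 1 of 47 (PCDHB9) and in 2.49% of all genes, which says only that this string is not in the other sequences. The promoters were poor in CpG: the median number of CG dinucleotides was 7 in 300 bases against 14 over all genes, and median GC content was 39.7% against 58.3%. The C-type genes, which stand at the ends of the alpha and gamma clusters, differed here, with GC contents of 63 and 66% in alpha and 59 and 60.7% in gamma.

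The question of the comparison was where ubiquitylated H2A.Z stands above or below total H2A.Z. In the 3 clusters many regions were higher in the ubiquitylated form and few were lower; both words refer below to ubiquitylated relative to total H2A.Z. The authors' deposited table listed 54 of the 120 regions (45.0%, 36.4 to 53.9%) as higher and 4 (3.33%, 1.30 to 8.26%) as lower at an FDR of at most 0.05. Over all merged regions 9.39% were higher and 12.1% were lower. At an FDR of at most 0.01 the window kept 45 higher regions (37.5%), against 5.26% over all. In the alpha cluster 15 of 35 regions were higher (42.9%, 28.0 to 59.1%), in beta 16 of 31 (51.6%, 34.8 to 68.0%) and in gamma 23 of 54 (42.6%, 30.3 to 55.8%). These intervals overlap, and a difference between the 3 clusters was not tested. The other 62 regions were in neither differential list.

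The surrounding chromosome did not share this balance. In the stretch of 850 kb directly before the window, 2 of 50 regions were higher (4%) and 14 were lower (28.0%). In the 850 kb directly after it, 7 of 155 were higher (4.52%) and 26 were lower (16.8%). The rest of chromosome 5, with 9357 regions, had 9.04% higher and 11.8% lower. The genome was also divided into tiles of 850 kb in phase with the window, and of 1190 tiles with at least 50 regions the median had 6.65% of its regions higher and 3 exceeded the window's 45.0%. No test of the difference between the window and other sets was made, because neighbouring regions are not independent and the lists hold no values per sample.

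**Figure D1:**
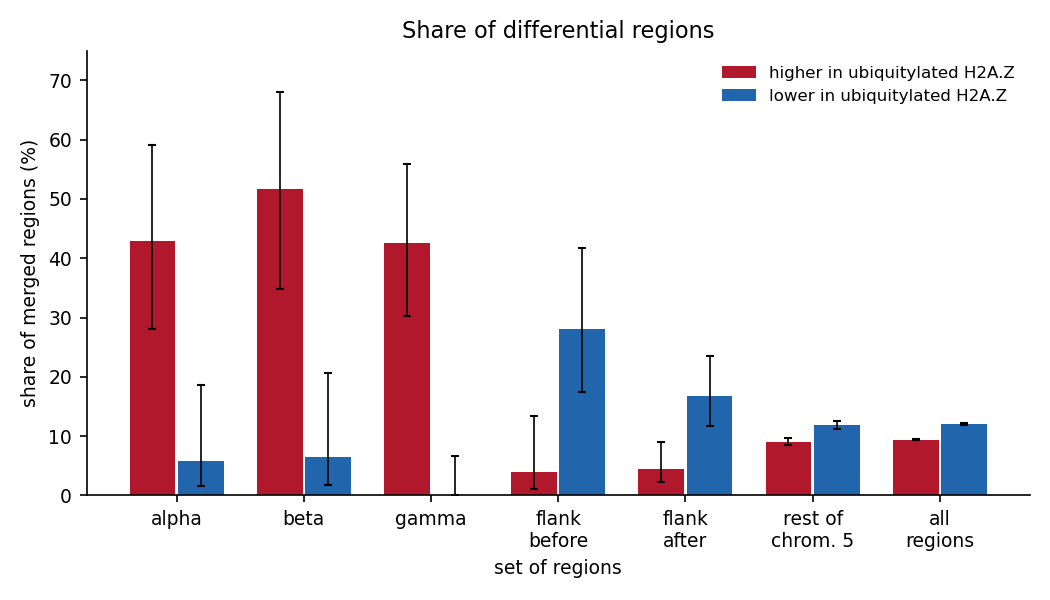
Share of merged regions (%) higher (red) or lower (blue) in the ubiquitylated form, for the 3 protocadherin clusters, the flanks of 850 kb, the rest of chromosome 5 and all merged regions, with 95% Wilson intervals as bars. The 3 clusters lie between 42.6 and 51.6% higher, and the flanks at 4 and 4.52%.

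Direction was almost uniform along the window. A series of 15 consecutive differential regions, all higher in ubiquitylated H2A.Z, covered chr5:140166911-140347273 in the alpha cluster, and 38 more covered chr5:140475581-140872502, from the beta into the gamma cluster. Across the genome, 180 of 5875 series of regions higher in ubiquitylated H2A.Z were as long as the first one or longer, itself included. For the second one this number was 40, itself included. The 4 regions that were lower lay outside these series by definition, since a lower call ends a series of higher ones. In the authors' deposited table, chr5:140104853-140105180 had a log2 fold change of -0.75 (FDR 0.027) and chr5:140105370-140105560 had -0.81 (FDR 0.037), both in the first 6 kb of the window. The other two were chr5:140420692-140420881 (-1.10, FDR 0.019) and chr5:140474131-140474563 (-0.89, FDR 0.0014) in the authors' deposited table, in the first part of the beta cluster. All 4 held total H2A.Z peaks only, as did 17634 of the 23960 lower regions of the genome.

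**Figure D2:**
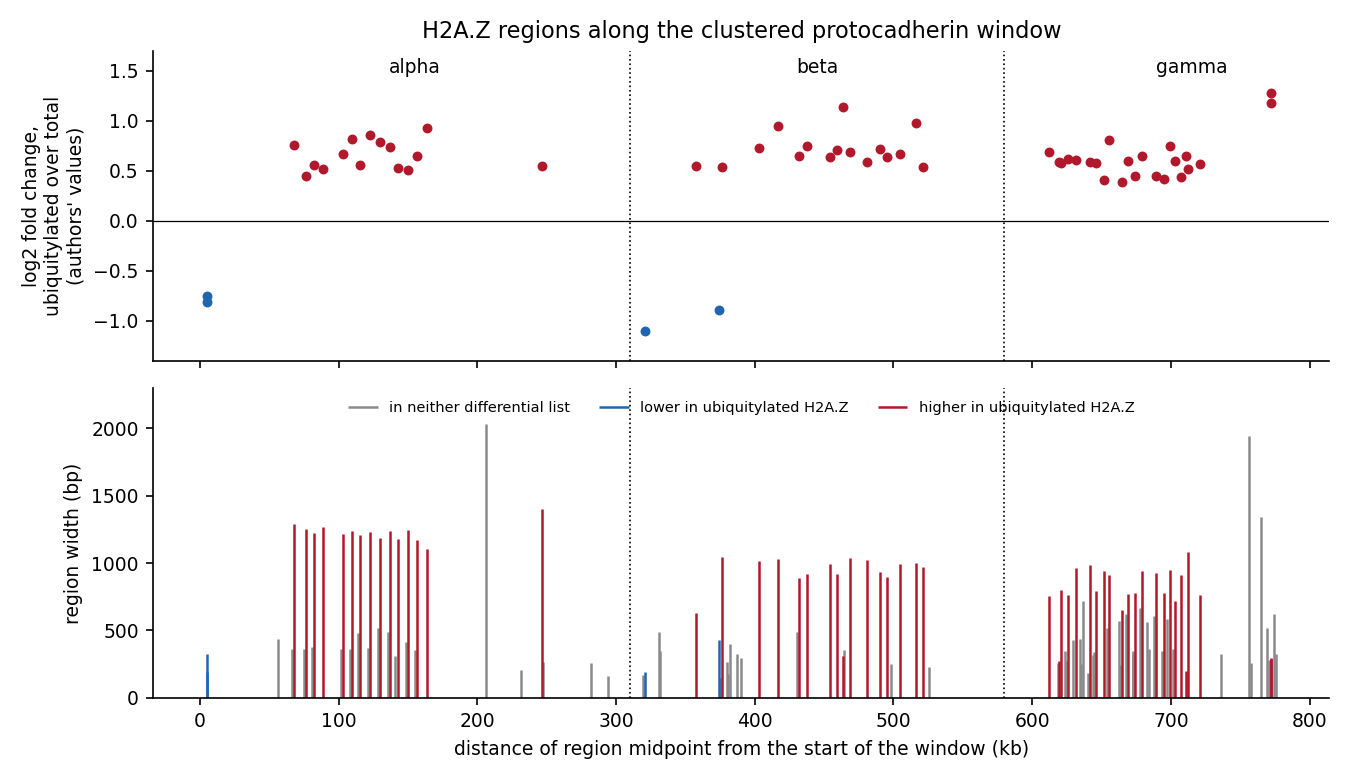
Upper panel: the authors' log2 fold change of ubiquitylated over total H2A.Z for each differential region. Lower panel: width (bp) of every region. Both are plotted against the distance (kb) of the region's midpoint from the start of the window, dotted lines divide the clusters, and red, blue and grey mark higher, lower and neither. Wide red regions measure 1108 to 1405 bp in alpha, 630 to 1043 bp in beta and 651 to 1084 bp in gamma, and the 4 blue regions are narrow.

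The changes were small in size. The files do not give the base of the authors' fold changes, which were taken as log2. By the authors' deposited table, the median log2 value of the higher regions was 0.65 in alpha (0.45 to 0.93), 0.68 in beta (0.53 to 1.13) and 0.59 in gamma (0.38 to 1.28), against 0.68 over all higher regions of the genome. Only 3 of the 54 reached 2-fold (2.50% of the 120 regions, 1.47% over all merged regions), and all 3 were narrow: chr5:140563535-140563848 in beta and the neighbours chr5:140871752-140872047 and chr5:140872211-140872502 in gamma, for which the authors' deposited table gave log2 values of 1.13, 1.28 and 1.17. They were named because of their values. Of the 120 regions 1 was lower by at least 2-fold, against 2.39% of all merged regions.

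The alpha regions with the lowest FDR were all wide and had other wide, higher regions between them. In the authors' deposited table chr5:140263073-140264180 had a log2 fold change of 0.93 (FDR 1.2e-07), chr5:140221989-140223220 had 0.86 (FDR 1.5e-07) and chr5:140208739-140209979 had 0.81 (FDR 9.9e-07, a value shared with the region that starts at 140229215, whose log2 fold change was 0.78). The first held no peak of total H2A.Z, and the other two held peaks of both lists. In beta the lowest values in the authors' deposited table belonged to chr5:140516295-140517322 (0.95, FDR 1.6e-07), chr5:140615422-140616422 (0.98, FDR 2.9e-07) and chr5:140502797-140503811 (0.72, FDR 2.4e-05), all with ubiquitylated peaks only. In gamma they belonged to chr5:140755033-140755941 (0.81, FDR 5.7e-06), chr5:140798677-140799623 (0.75, FDR 3e-05) and chr5:140778986-140779926 (0.65, FDR 0.00016) in the authors' deposited table, again with ubiquitylated peaks only. In gamma 15 of the 23 calls had an FDR of at most 0.01.

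Most higher regions of the window were wider than its regions without a call, with median widths of 955.5 and 357 bp. Over all regions of a cluster the median width was 491 bp in alpha, 490 bp in beta and 580 bp in gamma, against 313 bp over all merged regions. In alpha the widths left a gap, with no region between 516 and 1108 bp, and in beta 1 region (630 bp) lay between 490 and 889 bp. In gamma the widths ran on without such a gap. With a limit of 600 bp, set after the widths had been seen, alpha held 16 wide regions (median 1236 bp, 1108 to 2035 bp), beta 15 (median 994 bp, 630 to 1043 bp) and gamma 26 (median 786 bp, 607 to 1942 bp). The limit of 600 bp cuts through a continuous range in gamma, where limits of 500 and 800 bp, also chosen after seeing the data, gave 31 and 12 wide regions. Wide regions made up 47.5% of the window and 16.8% of all merged regions.

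Most wide regions were higher in ubiquitylated H2A.Z, nearly all of them in alpha and beta and fewer in gamma. This held for 15 of 16 in alpha (93.8%, 71.7 to 98.9%), for 15 of 15 in beta (100%, 79.6 to 100%) and for 19 of 26 in gamma (73.1%, 53.9 to 86.3%). Over all merged regions of at least 600 bp the share was 22.8%, with 15% lower, whereas no wide region of the window was lower. Of the 63 narrow regions 5 were higher (7.94%, 3.44 to 17.3%), close to the 6.68% over all narrow regions, and 4 were lower. Over the genome higher regions also had a larger median width (507 bp) than regions without a call (295 bp), although 7593 of the 18614 higher regions reached 600 bp. The shares are therefore also given by width. This does not remove the link between width and call, since a merged region can pass a width limit through its ubiquitylated peak alone. Ubiquitylated peaks only were held by 2 of the 16 wide regions in alpha, 11 of the 15 in beta and 7 of the 26 in gamma. From 900 bp to under 1200 bp, 25 of 25 regions of the window were higher against 22.7% of the other regions, and from 600 bp to under 900 bp 13 of 18 against 20.3%. From 300 bp to under 600 bp the order was the other way, with 1 of 39 higher (2.56%, 0.454 to 13.2%) against 9.28%. Under 300 bp 4 of 24 were higher (16.7%, 6.68 to 35.9%) against 4.65%. The interval from 300 bp to under 600 bp includes the 9.28% of the other regions, so a lower share there is not shown. The share over the narrow regions of the window joins both of these widths.

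**Figure D3:**
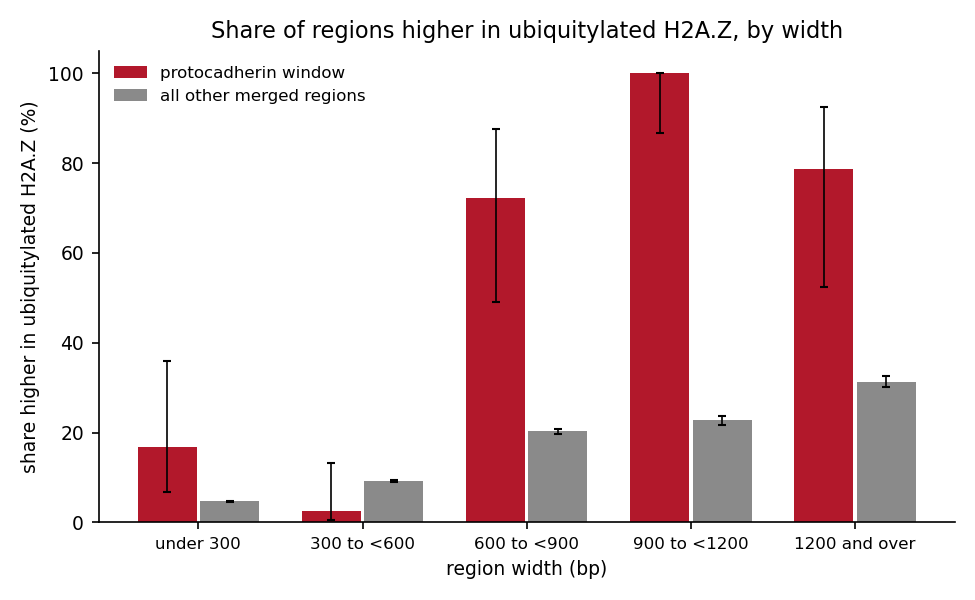
Share of regions (%) higher in ubiquitylated H2A.Z by region width (bp), in the protocadherin window (red) and in all other merged regions (grey), with 95% Wilson intervals as bars. Above 600 bp the window's shares lie between 72.2 and 100% and those of the other regions between 20.3 and 31.3%. Width is that of the merged region, which the ubiquitylated peak alone can set.

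Of the 57 wide regions 8 were in neither differential list, 1 in alpha and 7 in gamma. In alpha the exception was also the widest region of the window, chr5:140305476-140307510 (2035 bp), with low IDR in both lists (7.43e-06 in ubiquitylated and 5.83e-05 in total H2A.Z). In gamma the widest regions, chr5:140855259-140857200 (1942 bp) and, named for its width, chr5:140864221-140865565 (1345 bp), were also without a call. The alpha exception was followed by 1 more wide, higher region, chr5:140345869-140347273, and no wide, higher region followed the gamma ones. The other 5 wide gamma regions without a call measured 607 to 720 bp, and 4 of them stood between wide, higher regions.

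**Figure D4:**
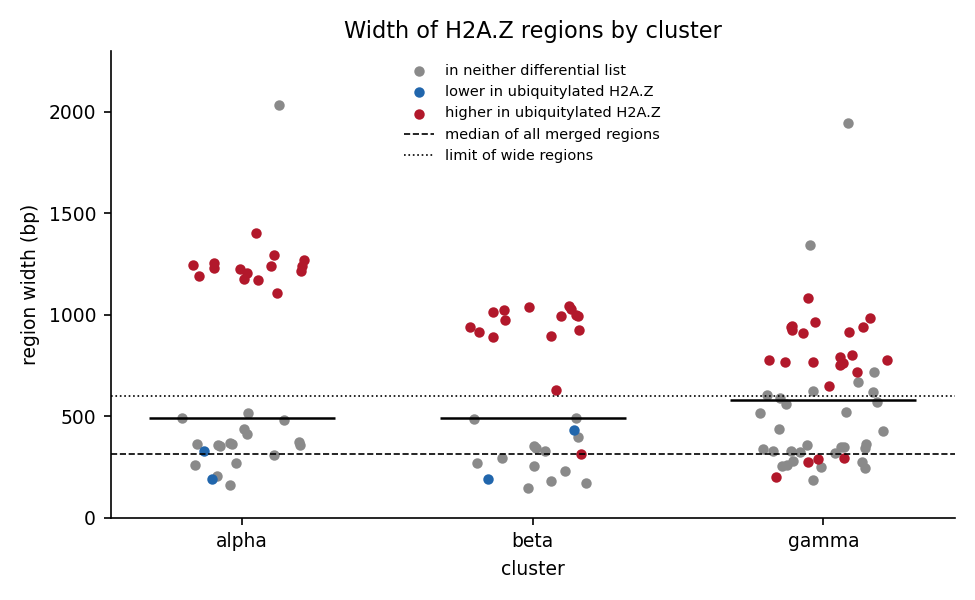
Width (bp) of each merged region by cluster, coloured by call (red higher, blue lower, grey neither), with the cluster median as a bar, the median of all merged regions dashed and the limit of 600 bp dotted. Points are spread sideways for legibility. Red points cluster tightly in alpha, at 1108 to 1405 bp, and spread from 199 to 1084 bp in gamma.

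The wide regions were arranged in tandem. Midpoints of neighbouring wide regions lay a median of 6.90 kb apart in alpha (quartiles 6.31 and 8.29 kb), 10.2 kb in beta (6.56 and 14.5 kb) and 5.04 kb in gamma (3.77 and 8.31 kb). The distances ran from 5.10 to 42.9 kb in alpha, 5.23 to 27.2 kb in beta and 1.74 to 34.9 kb in gamma. The gamma value rests on the width limit: with 800 bp it was 9.85 kb, close to the 9.37 kb of beta with that limit. In alpha the unit was double: a narrow region came first and a wide region followed. Of the 16 wide alpha regions 12 had such a narrow region upstream within 1500 bp, and the distance between the 2 starts ran only from 1005 to 1110 bp (median 1067 bp). The gap between them was 573 to 755 bp (median 677 bp). Over all merged regions under 600 bp, 11021 of 164887 were higher and 18958 were lower, a share at which few calls would fall among 12 regions. None of the 12 narrow partners was in a differential list. The 12 wide regions beside them were all higher in ubiquitylated H2A.Z, against 22.8% over all merged regions of at least 600 bp. One such pair, picked as the first in the cluster, was chr5:140165885-140166245 (361 bp, peaks of both lists, no call) and chr5:140166911-140168202 (1292 bp, log2 fold change 0.76, FDR 2e-06 in the authors' deposited table).

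A similar order was seen in gamma and hardly at all in beta. In gamma 11 of 26 wide regions had a narrow partner upstream, with starts a median of 1141 bp apart (560 to 1498 bp), and 2 of the 11 partners were called. In beta 2 of 15 had one. Most wide beta regions thus stood alone. The limit of 1500 bp cuts the range in gamma and was not varied. Partners downstream and such pairs over the genome were not counted. Calls among the partners were not tested against the share over all narrow regions. Narrow regions had a median width of 361 bp in alpha, and the part that width plays in the absence of a call at the partners was not tested.

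The lists differed in how much of the window they covered. Ubiquitylated H2A.Z had 111 peaks over 72.7 kb and total H2A.Z 74 peaks over 40.6 kb, a ratio of covered bases of 1.79, with mean peak lengths of 655 and 548 bp. Over the genome the ratio was 1.04, with mean lengths of 412 and 395 bp, and in the flanks it was 0.828 and 0.896. The ratio was 1.63 in alpha, 3.35 in beta and 1.50 in gamma. Peaks were called in each list separately, so covered bases move with how much was called, and 47 of 1190 tiles had a larger ratio than the window.

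Beta had the fewest regions in common. Peaks of both lists were held by 23 of 35 alpha regions (65.7%, 49.2 to 79.2%), 9 of 31 beta regions (29.0%, 16.1 to 46.6%) and 31 of 54 gamma regions (57.4%, 44.2 to 69.7%), against 41.9% over all merged regions. The beta and alpha intervals do not overlap, but they treat neighbouring regions as independent, and the difference was not tested. With peaks of an IDR of at most 0.01 the counts were 12 of 32 in alpha and 8 of 26 in beta, which lie closer together. Ubiquitylated peaks alone were held by 10 alpha, 17 beta and 19 gamma regions, and total peaks alone by 2, 5 and 4. The last class made up 9.17% of the window and 29.2% of all merged regions. Among wide regions, 11 of 15 in beta had ubiquitylated peaks only, compared with 2 of 16 in alpha and 7 of 26 in gamma, and none in the window had total peaks only.

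Calls were not limited to regions without a total H2A.Z peak. Of the 63 regions of the window with peaks of both lists 29 were higher (46.0%), against 5.97% of such regions in the genome. Of the 46 with ubiquitylated peaks only 25 were higher (54.3%), against 23.8%. Where both lists had a peak, that of total H2A.Z was often shorter. In the 14 wide alpha regions with both, ubiquitylated peaks covered a median of 1239 bp and total peaks 851 bp, and the ubiquitylated peak was the longer in 13. The same held in 4 of 4 wide beta regions (medians 1014 and 626.5 bp) and in 13 of 19 wide gamma regions (762 and 661 bp). Together this was 30 of 37 (81.1%), against 46.8% of the genome's wide regions with peaks of both lists. Of 2 alpha regions picked for their values, at chr5:140236754-140237993 the total peak spanned 322 bp, 26.0% of the ubiquitylated peak, and at chr5:140181871-140183095 it spanned 1214 bp, 99.9% of it. Both were higher, and the authors' deposited table gave them 0.74 and 0.56 as log2 fold changes.

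**Figure D5:**
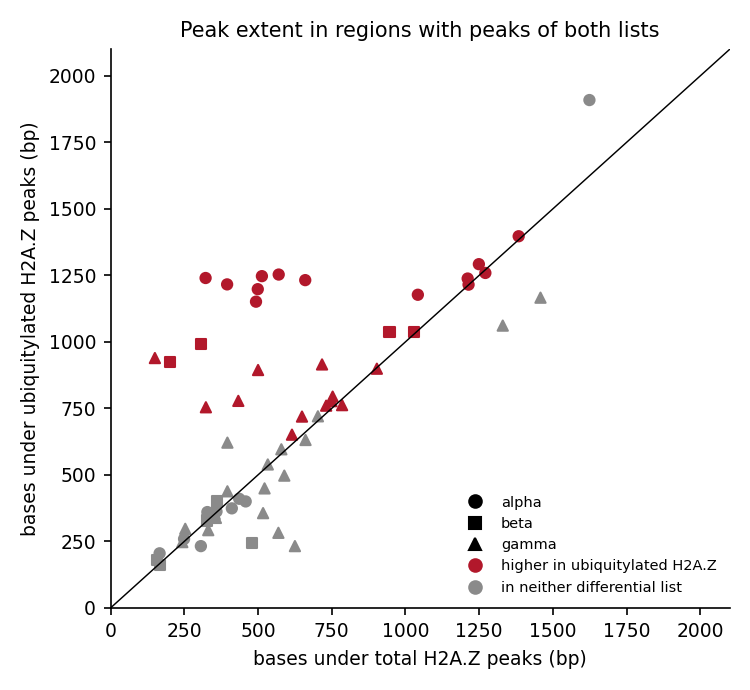
Bases (bp) under ubiquitylated H2A.Z peaks against bases under total H2A.Z peaks in each of the 63 regions with peaks of both lists, with circles for alpha, squares for beta and triangles for gamma, red for higher and grey for neither. The line marks equal extent. Red points lie on or above the line, apart from 3 just below it, and of the 37 regions of at least 600 bp shown here 30 have the longer peak in ubiquitylated H2A.Z.

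Ubiquitylated peaks of the window had a lower median IDR than those of the genome, and total peaks a higher one. The lowest IDR per region had a median of 0.000669 for ubiquitylated peaks in the window, against 0.00134 over all merged regions with such peaks. For total H2A.Z peaks it was 0.00513 in the window and 0.00327 over all. The ubiquitylated medians were 0.000707 in alpha, 0.00128 in beta and 0.000570 in gamma, and the total medians were 0.00466, 0.00459 and 0.00563. IDR is a value within a list and was not compared across the lists. The region with the lowest ubiquitylated IDR in gamma, chr5:140782698-140783257 (560 bp, IDR 4.25e-07), also had the lowest total IDR there (0.000192) and carried no call. In alpha the lowest ubiquitylated IDR belonged to a wide, higher region, chr5:140215098-140216304 (5.22e-06), and the lowest total IDR to a narrow partner, chr5:140248726-140249136 (7.11e-06). In beta they belonged to chr5:140568120-140569155 (3.52e-06), which was higher in ubiquitylated H2A.Z, and to chr5:140530321-140530810 (0.00095), which was not called.

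Region density in the window lay between that of the flank before it and that of the flank after it. Density over chromosome 5 and over the whole genome was not computed. The window held 14.1 regions per 100 kb, with 11.3 in alpha, 11.5 in beta and 20.0 in gamma, against 5.88 in the flank before it and 18.2 in the flank after it. With flanks of 2 times the length these were 10.4 and 11.3, both below the window. Its 120 regions were exceeded by 476 of the 1190 tiles with at least 50 regions, and the median of those tiles was 101.5. Tiles with fewer regions were left out, so these counts do not place the window among all tiles of the genome.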

How the data were processed

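The members, the window and the lists were chosen with earlier results of these data known. Per the submitters' processing notes, Bowtie, SAMtools, MACS2 and edgeR and the build hg19 were used; their versions and settings and the test behind the differential lists stand as not given in the sources used here. For each H2A.Z form the authors deposited a list of peaks with an IDR of at most 0.05, read as a q-value per peak, and 2 lists of differential regions, each region with a log2 fold change (ubiquitylated over total) and an FDR of at most 0.05. The log2 scale was inferred from the edgeR entry in the submitters' notes, since the authors' files do not name it. The normalization between libraries is not stated, so direction is relative to it.

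From these lists, starts were raised by 1 to give 1-based coordinates and peaks that overlapped or touched were merged. All 42574 differential regions matched a merged region exactly, so all merged regions served as background. List membership required an overlap of 1 bp. Counts, medians and Wilson intervals were computed in Python 3.11.15 with pandas 2.3.3, numpy 2.4.6 and scipy 1.17.1, and drawn with matplotlib 3.10.9, after the merging was tested on simulated data. Regions were named by rule: per cluster and direction the 3 of lowest FDR, the widest region and, per list, the lowest IDR. Regions named outside this rule were chosen after their values were seen. Promoter sequences are from RefSeq (GRCh38.p14), 1 per gene. The design's count of promoters near regions and its lists of other genes need an hg19 annotation and were not run. No count model was fitted and no test made here, because no values per library were used.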

Additional observations from a re-analysis of the deposited data

How the results depend on the processing

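No paired analysis was possible because the files used give no value for a single library. Leaving out a replicate was not possible either. Promoter distances were not run because no hg19 annotation was used. Of 189 alternatives over 58 results, 149 stayed within 1.5 times the reported value or within its Wilson interval and 40 did not. None of these quantities can be negative, so a change of sign could not occur. Some alternatives could not move a result, such as moved inner limits for counts over the whole window. The cause was not tested in any of the 40, beyond the fewer regions that a stricter setting leaves.

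Changes of at least 2-fold left 0 higher regions in alpha (0%), 1 in beta (3.23%), 2 in gamma (3.70%) and 3 in the window (2.50%), and 0, 1 and 1 lower regions in alpha, beta and the window. An FDR of at most 0.01 left 15 higher regions in gamma (27.8%) and 0, 1 and 1 lower regions in alpha, beta and the window. Regions with peaks of both lists alone gave 4 higher regions in beta, 12 in gamma and 29 in the window, and 0 lower regions in alpha, beta and the window. With an IDR of at most 0.01, regions with both lists numbered 12 of 32 in alpha, 8 of 26 in beta and 41 in the window, those with ubiquitylated peaks only 16 in alpha, and those with total peaks only 4 in alpha and 2 in beta. That setting gave median widths of 812 bp in alpha and 893 bp in beta and a ratio of covered bases of 2.51 in alpha. Beta peaks had a median width of 893 bp in the ubiquitylated and 287.5 bp in the total list. With the inner limits moved by 20 kb up, beta held 1 lower region. Flanks of 2 times the length held 10.4 and 11.3 regions per 100 kb. Regions merged within 1 kb lay 7.74 kb apart in alpha and 4.64 kb in gamma. A limit of 800 bp for wide regions, chosen after seeing the data, left 12 in gamma, 10 of them higher, 9.85 kb apart. A looser form of the CTCF core, with 1 more free base, was found in 1 of 47 promoters.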
